A study of Homo sapiens with 30 samples.

Results

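Expression of 9 protein-coding genes stood higher with every antisense oligonucleotide (ASO) against NESPR, a long non-coding RNA, in each of 3 neuroblastoma cell lines: GARIN4, ZMYND10, PYGM, FERMT3, RILP, ECM1, ADM5, ACTA1 and MROH6. They were selected on the measured values, as genes called higher than the control ASO in all 6 comparisons of an ASO with its control, so their rise against the control is what selected them and is described here without a test. Of 11594 genes tested in all 3 lines, 354 met that criterion (3.05%), and these 9 of the 354 ranked 1 to 4, 7 to 10 and 12 by the mean of the 6 log2 fold changes. The other genes among the leading 12 were ZNF426, the gene ENSG00000224097 and FOS. The last of the 9 was MROH6, at a mean of 1.49, and the next genes outside were POLH (1.39) and RND1 (1.38). ADM5 had the highest of the largest adjusted p-values inside (0.0445), and HSD3B7 was just outside (0.0542).

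The cells were IMR32, NGP and SK-N-BE(2)c, which are established neuroblastoma lines, and each group was 1 line transfected with 1 ASO at 100 nM using lipofectamine 2000. IMR32 received ASO1, ASO2 or the negative control ASO (NCA), with 4 libraries each. NGP and SK-N-BE(2)c received ASO2, ASO10 or NCA, with 3 libraries each, which gave 30 libraries in 9 groups. Control and NESPR-directed groups alike were transfected, no untransfected group is used here, and ASO2 was the only NESPR-directed ASO used in all lines. The target sites and sequences of the ASOs and the time to harvest are not given in the sources used here, and NESPR itself was not analysed here. Nothing in the labels says that libraries came from separate cultures, so the spread between them may be technical.

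The 9 genes have separate known roles. GARIN4 encodes a Golgi-associated protein of a family that binds the small GTPase RAB2, and ZMYND10 a cytoplasmic factor needed to assemble the dynein arms of motile cilia. PYGM is the muscle form of glycogen phosphorylase, which releases glucose units from glycogen, and ACTA1 is the actin of skeletal muscle thin filaments. FERMT3 is kindlin-3, which activates integrins in blood cells. RILP couples RAB7 on late endosomes and lysosomes to the dynein motor. ECM1 is a secreted extracellular matrix glycoprotein, ADM5 is annotated as a putative member of the adrenomedullin peptide family, and MROH6 has maestro heat-like repeats.

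The RefSeq table of windows around gene starts (build GRCh38.p14) held entries for 7 of the 9 genes, with 2 starts for FERMT3. The 3 sequences below are the 250 bases before a start and are shown because they hold the sites of stress- or serum-responsive factors, or the TATA box, that a search of all 8 member windows found. Capitals mark the serum response CArG box and TATA box in ACTA1, the AP-1 sites and TATA box in ECM1, and the AP-1 site in FERMT3. All are written 5′ to 3′ on the strand of the gene: chr1:229434095-229434344 (minus strand), chr1:150507859-150508108 (plus strand) and chr11:64207456-64207705 (plus strand, the second of the listed FERMT3 starts).
ACTA1: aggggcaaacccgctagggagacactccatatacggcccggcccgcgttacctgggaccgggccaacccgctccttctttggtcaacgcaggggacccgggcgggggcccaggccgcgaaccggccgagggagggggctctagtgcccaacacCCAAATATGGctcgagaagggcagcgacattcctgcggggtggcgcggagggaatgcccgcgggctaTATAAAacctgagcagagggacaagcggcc
ECM1: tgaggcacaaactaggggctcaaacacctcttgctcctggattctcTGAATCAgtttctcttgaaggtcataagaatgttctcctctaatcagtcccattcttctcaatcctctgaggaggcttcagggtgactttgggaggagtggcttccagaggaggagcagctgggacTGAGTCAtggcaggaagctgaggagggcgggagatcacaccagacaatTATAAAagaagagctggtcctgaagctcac
FERMT3: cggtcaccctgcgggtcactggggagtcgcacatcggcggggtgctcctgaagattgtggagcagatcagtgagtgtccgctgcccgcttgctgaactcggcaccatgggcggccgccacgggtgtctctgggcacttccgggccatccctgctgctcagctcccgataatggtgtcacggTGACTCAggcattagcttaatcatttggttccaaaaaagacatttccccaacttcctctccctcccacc

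The 8 motifs were searched on both strands, and no matches in the printed windows overlapped each other. The AP-1 site, TGANTCA, was found in 2 of the 7 genes with a window, and in 2 of the 8 member windows. It lay at positions -204 to -198 and -78 to -72 before the start of ECM1 and at -69 to -63 in FERMT3, and 6.59% of the 34788 windows in the table held one. The CArG box, the binding site of serum response factor, was found in ACTA1 alone among the members at positions -97 to -88, against 1.17% of all windows. TATAAA stood at positions -30 to -25 in both ACTA1 and ECM1, against 10.8% of all windows. GGGCGG, the GC box, was present in 6 of the 7 genes, in 7 of the 8 member windows and in 42.6% of all windows. The CRE TGACGTCA, the E-box CACGTG, the ATF4 element TGATGCAA and the heat shock element had no match in the 8 member windows, against 1.64%, 6.31%, 0.776% and 0.443% of all windows. No searched motif was present in all 7 genes.

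Levels are normalized counts, that is reads divided by a size factor for each library, as the authors deposited them. Fold changes are differences of log2(value + 1), given with the standard error of the limma fit and understating the change of low genes, and a call is an adjusted p under 0.05 (Benjamini-Hochberg, over all genes tested in the line). All 9 genes were called higher in each of the 6 comparisons, as the selection required. Over all genes tested, 13.6% were called higher with ASO1 and 17.6% with ASO2 in IMR32, 30.6% with ASO2 and 26.8% with ASO10 in NGP, and 33.6% with ASO2 and 27.8% with ASO10 in SK-N-BE(2)c. Of the 54 pairs of gene and comparison, 49 had every ASO library above every NCA library and 5 overlapped. The shares called lower over all genes were 14.4% and 14.8% in IMR32, 28.1% and 27.6% in NGP, and 33.4% and 31.1% in SK-N-BE(2)c, in the same order. The shares of all genes tested without overlap upwards were 13.4%, 16.3%, 32.4%, 28.6%, 34.4% and 30.4%, in the same order. In these bulk libraries, more cells with a transcript and more of it per cell cannot be told apart.

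The median log2 fold change of the 9 genes was 0.91 with ASO1 and 1.44 with ASO2 in IMR32, 1.02 with ASO2 and 2.46 with ASO10 in NGP, and 2.30 with ASO2 and 3.41 with ASO10 in SK-N-BE(2)c. The median over all genes tested lay between -0.031 and 0.0090 in these comparisons. Rescaling every library to the same total moved that median from -0.016 to -0.15 with ASO2 in SK-N-BE(2)c, where the share of calls that were higher went from 50.2% to 38.4%. The 2 comparisons of a line share their control libraries, and the values are given side by side for that reason.

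**Figure D1:**
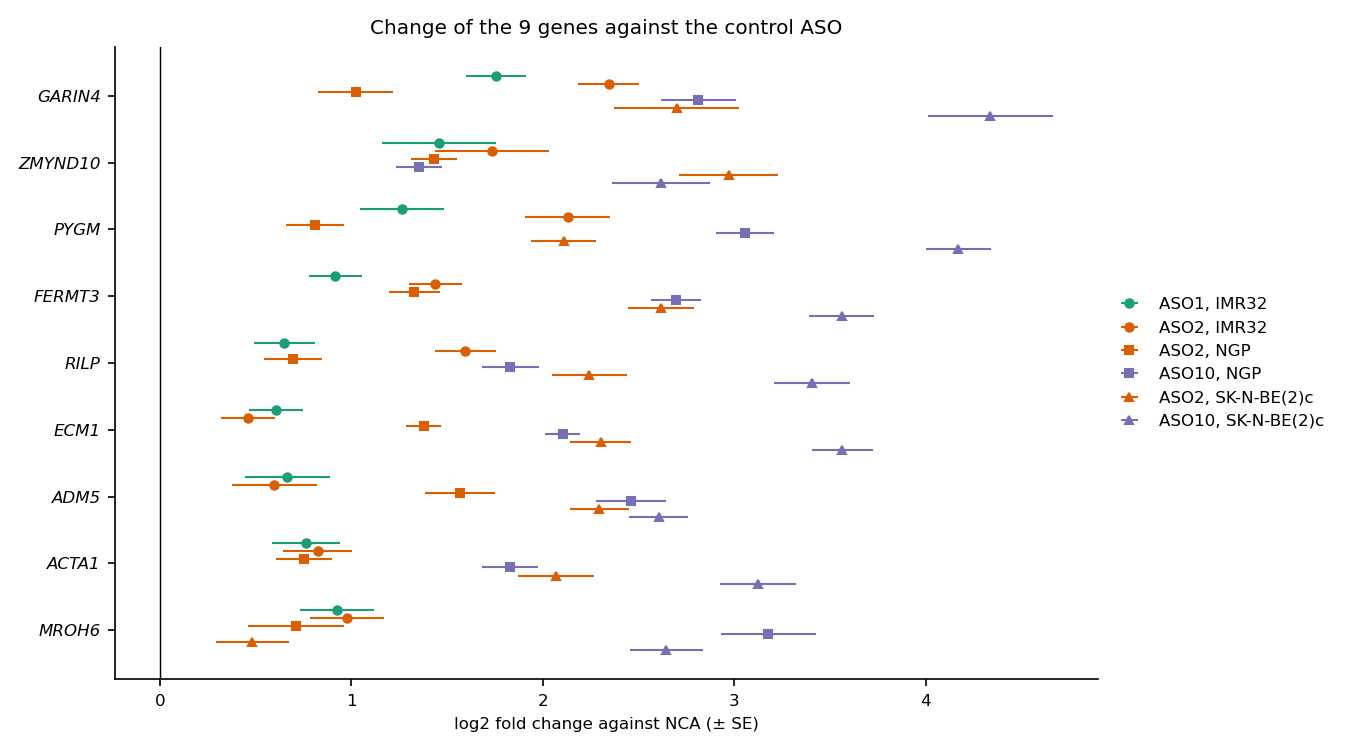
Log2 fold change of each of the 9 genes against NCA, with the standard error of the fit, in the 6 comparisons (colour gives the ASO, symbol the cell line). All 54 points lie to the right of 0, from 0.46 for ECM1 with ASO2 in IMR32 to 4.34 for GARIN4 with ASO10 in SK-N-BE(2)c.

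GARIN4 had the largest mean change of the 9. In IMR32 its normalized counts were 30.7, 23.4, 37.3 and 34.9 with NCA, 89.4, 119, 112 and 112 with ASO1 and 118, 166, 181 and 194 with ASO2. NGP libraries held 24.6, 29.2 and 17.4 with NCA, 45.5, 44.4 and 55.6 with ASO2 and 176, 170.2 and 162 with ASO10. The SK-N-BE(2)c counts were 2.09, 7.06 and 2.89 with NCA, 26.5, 29 and 31.2 with ASO2 and 70.7, 105 and 104 with ASO10. No ASO library overlapped its controls, and in SK-N-BE(2)c and NGP the ASO10 libraries also lay above all ASO2 libraries. The log2 fold changes were 1.75 ± 0.16 (ASO1) and 2.34 ± 0.16 (ASO2) in IMR32, 1.02 ± 0.20 (ASO2) and 2.81 ± 0.20 (ASO10) in NGP, and 2.70 ± 0.33 and 4.34 ± 0.33 in the SK-N-BE(2)c line. The SK-N-BE(2)c control libraries rested on 2 to 7 reads of GARIN4, the fewest reads of any of the 9 genes in a group, so that fold is the least precise of the set.

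ZMYND10 stood at about the same level with ASO2 as with ASO10 in NGP. In NGP it stood at 118, 143 and 103 with NCA, 344, 311 and 323 with ASO2 and 325, 339 and 266 with ASO10, so that both ASO groups covered nearly the same range. SK-N-BE(2)c libraries held 13.6, 9.07 and 5.78 with NCA, 82.9, 72.5 and 76.8 with ASO2 and 53.9, 66.5 and 61.1 with ASO10, with every ASO2 library above every ASO10 library. In IMR32 the counts were 16.5, 6.17, 9.88 and 10.1 with NCA, 15.5, 48.1, 35.1 and 28.4 with ASO1 and 26.3, 38.6, 47.6 and 34.3 with ASO2, and replicate 1 of ASO1 fell below the highest control library. The fold changes were 1.46 ± 0.30 and 1.73 ± 0.30 in IMR32, 1.43 ± 0.12 and 1.35 ± 0.12 in NGP, and 2.97 ± 0.26 and 2.62 ± 0.26 in the SK-N-BE(2)c line, on the log2 scale.

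PYGM and ACTA1, the muscle enzyme and the muscle actin, moved by different amounts. PYGM counts in NGP were 223, 227 and 125 with NCA, 330.5, 269 and 386 with ASO2 and 1578, 1657 and 1408 with ASO10. The ASO10 libraries stood far above the other NGP groups. In SK-N-BE(2)c PYGM gave 42.9, 74.6 and 36.6 with NCA, 262, 179 and 209.9 with ASO2 and 823, 1026 and 859 with ASO10, and in IMR32 13.0, 17.3, 22.0 and 25.7 with NCA, 29.2, 49.1, 53.1 and 62.7 with ASO1 and 68.4, 81.9, 101 and 97.1 with ASO2. Its log2 fold changes ran from 0.81 ± 0.15 with ASO2 in NGP to 4.17 ± 0.17 with ASO10 in SK-N-BE(2)c. Without NGP NCA replicate 3, the lowest control library, the NGP ASO2 value was 0.53.

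ACTA1 in NGP stood at 56.5, 59.4 and 52.3 with NCA, 95.6, 82.9 and 108 with ASO2 and 217, 196 and 192 with ASO10. SK-N-BE(2)c libraries gave 18.8, 27.2 and 18.3 with NCA, 117, 68.9 and 96.0 with ASO2 and 168, 218 and 193 with ASO10. Each ASO group lay above its controls in both lines. IMR32 held 21.2, 19.7, 15.4 and 23.9 with NCA, 32.9, 36.8, 36.0 and 31.7 with ASO1 and 28.1, 35.8, 42.2 and 38.9 with ASO2, where the 2 ASO groups overlapped each other and neither overlapped the control. The fold changes of ACTA1 were 0.76 ± 0.18 and 0.82 ± 0.18 in IMR32, 0.75 ± 0.15 and 1.83 ± 0.15 in NGP, and 2.07 ± 0.20 and 3.13 ± 0.20 in the SK-N-BE(2)c line.

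Skeletal muscle markers were read beside PYGM and ACTA1. The muscle regulators MYOD1, MYF5 and MYF6 did not exceed 3 reads in any of the 30 libraries. The summed level of the 10 markers was 805 to 954 with NCA, 775 to 949 with ASO1 and 744 to 892 with ASO2 in IMR32. With NCA, ASO2 and ASO10 it was 306 to 338, 265 to 334 and 1113 to 1167 in NGP, and 10.5 to 23.1, 35.4 to 46.4 and 329 to 488 in the SK-N-BE(2)c line. In those lines the sum was led by MYH3, an embryonic myosin heavy chain, whose mean with ASO10 was 844 for NGP and 370.0 for SK-N-BE(2)c, against 149 and 12.9 with NCA. The part of these markers in the PYGM and ACTA1 results was not tested.

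FERMT3, the blood-cell kindlin, was higher with each ASO in all 3 lines. Its counts in SK-N-BE(2)c were 62.8, 68.6 and 31.8 with NCA, 369, 289 and 312 with ASO2 and 578, 665 and 619 with ASO10. In NGP they were 128, 152 and 106 with NCA, 361, 247 and 370.4 with ASO2 and 865, 864 and 762 with ASO10. IMR32 gave 36.6, 54.3, 54.9 and 47.8 with NCA, 75.7, 85.9, 97.6 and 108 with ASO1 and 124, 118, 138 and 147 with ASO2. In each line the 3 groups were fully separated, with NCA lowest. The fold changes were 0.91 ± 0.14 and 1.44 ± 0.14 in IMR32, 1.33 ± 0.13 and 2.70 ± 0.13 in NGP, and 2.62 ± 0.17 and 3.56 ± 0.17 in the SK-N-BE(2)c line. Of 9 haematopoietic markers, CD53 and TYROBP were at 3 reads or fewer in every library. The summed level of the 9 was 172 to 205 with NCA, 185 to 208 with ASO2 and 202 to 248 with ASO10 in NGP, and 351 to 375, 347 to 426 and 406 to 426 in the SK-N-BE(2)c line. In IMR32 it was 199.8 to 228 with NCA, 214 to 233 with ASO1 and 209 to 231 with ASO2. CORO1A led this sum in IMR32, with means of 192 with NCA, 190 with ASO1 and 191 with ASO2. It also led in NGP, at 118 with NCA, 105 with ASO2 and 102 with ASO10. For SK-N-BE(2)c the leading marker was CORO1A with NCA (197) and LCP1 with ASO2 (225) and ASO10 (228). The part of these markers in the FERMT3 result was not tested.

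RILP, the late endosome adaptor, ranged from 16.0 to 20.2 with NCA to 26.6 to 31.0 with ASO1 and 46.5 to 62.1 with ASO2 in IMR32. In NGP the ranges were 61.5 to 94.8 with NCA, 111 to 149 with ASO2 and 257 to 309 with ASO10. SK-N-BE(2)c gave 13.6 to 27.2, 87.0 to 113 and 227 to 237. None of these ranges touched within a line. The fold changes ran from 0.65 ± 0.16 with ASO1 in IMR32 to 3.41 ± 0.20 with ASO10 in SK-N-BE(2)c.

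The secreted products ECM1 and ADM5 had their smallest changes in IMR32. ECM1 there stood at 62.5, 45.6, 57.1 and 65.2 with NCA, 73.0, 91.0, 104 and 84.4 with ASO1 and 64.0, 83.8, 88.9 and 81.1 with ASO2, and replicate 1 of ASO2 lay below the highest control. The IMR32 fold changes of ECM1 were 0.61 ± 0.14 and 0.46 ± 0.14. In NGP the ECM1 ranges were 185 to 229 with NCA, 501 to 575 with ASO2 and 835 to 960.5 with ASO10, and in SK-N-BE(2)c 32.4 to 53.4, 174 to 254 and 467 to 625, with no overlap in either line. Its fold changes were 1.38 ± 0.091 and 2.10 ± 0.091 in NGP, and 2.30 ± 0.16 and 3.56 ± 0.16 in the SK-N-BE(2)c line.

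ADM5 in IMR32 gave 11.8, 18.5, 16.5 and 16.5 with NCA, 20.1, 25.6, 28.4 and 28.4 with ASO1 and 15.8, 31.1, 25.2 and 27.4 with ASO2, and here too replicate 1 of ASO2 lay within the control range. The IMR32 fold changes of ADM5 were 0.67 ± 0.22 and 0.60 ± 0.22. The ASO1 call was lost with no filter on low values, with DESeq2 and without any 1 of 4 libraries (limma, adjusted p up to 0.0877, without NCA replicate 1). The ASO2 call was lost with no filter, rescaling, edgeR or DESeq2 and without any 1 of 9 libraries (limma, adjusted p up to 0.146, without ASO2 replicate 2). In SK-N-BE(2)c the 3 controls stood at 30.3, 30.2 and 29.9, the ASO2 libraries at 185, 134 and 142 and the ASO10 libraries at 179, 198 and 189. Here ASO2 replicate 1 reached the ASO10 range. NGP ranged from 42.0 to 89.5 with NCA to 176 to 198 with ASO2 and 278 to 413 with ASO10. ADM5 changed by 1.57 ± 0.18 and 2.46 ± 0.18 in NGP and by 2.30 ± 0.15 and 2.61 ± 0.15 in the SK-N-BE(2)c line. The gene overlaps PRMT1 on the same strand, and 19.0% of the 50-base stretches of its transcripts also occur in PRMT1 transcripts, so how reads were divided between the 2 is uncertain.

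MROH6 was the one gene whose ASO2 libraries overlapped the controls in both SK-N-BE(2)c and NGP. In NGP it stood at 40.1, 35.4 and 16.4 with NCA, 42.7, 66.2 and 37.8 with ASO2 and 290.4, 307 and 214 with ASO10. SK-N-BE(2)c libraries held 74.3, 70.6 and 40.5 with NCA, 107, 76.1 and 72.0 with ASO2 and 363, 479 and 312 with ASO10. In IMR32 they were 20.1, 23.4, 25.3 and 29.4 with NCA, 36.5, 52.1, 65.4 and 39.3 with ASO1 and 42.1, 40.5, 58.4 and 57.1 with ASO2, with no ASO library in the control range. ASO2 changed MROH6 by 0.71 ± 0.25 in NGP and 0.48 ± 0.19 in the SK-N-BE(2)c line, and ASO10 by 3.18 ± 0.25 and 2.64 ± 0.19. Without NGP NCA replicate 3 the NGP ASO2 change was 0.33 and no longer met the selection (limma, adjusted p = 0.171). Nor did it without NGP ASO2 replicate 2, at 0.47 (limma, adjusted p = 0.149), or with DESeq2 (adjusted p = 0.11). In SK-N-BE(2)c it was 0.21 without NCA replicate 3 and 0.31 without ASO2 replicate 1 (limma, adjusted p = 0.302 and 0.191). The SK-N-BE(2)c call was also lost with no filter on low values, after rescaling and with DESeq2 (adjusted p = 0.0529, 0.117 and 0.162).

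**Figure D2:**
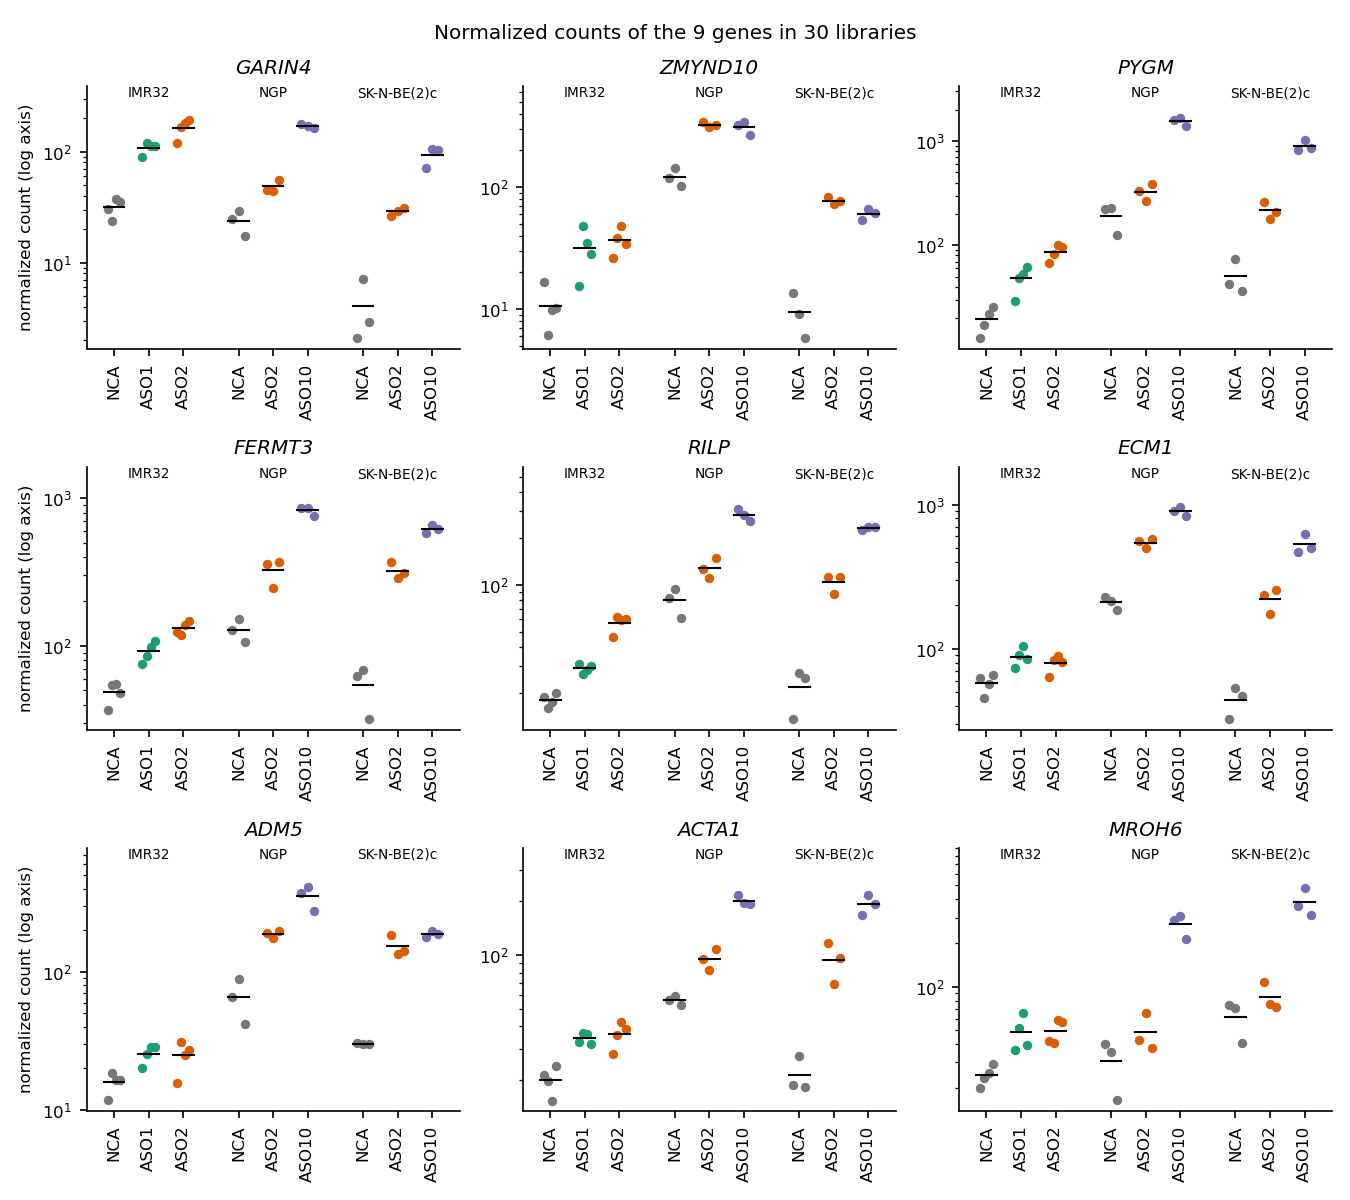
Normalized counts (log axis) of the 9 genes in the 30 libraries, one panel per gene, with each point 1 library and each black line the mean of its group. The NCA groups are the lowest in every panel and line by their means, and ASO10 is above ASO2 in SK-N-BE(2)c and NGP in every panel except that of ZMYND10.

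Set per kilobase of exon (GENCODE 29), the order of the genes differed between lines. With NCA, the group means in NGP ran from 6.95 ± 2.84 per kilobase for MROH6 to 62.3 ± 6.68 for ECM1 (SD, n = 3). In SK-N-BE(2)c they ran from 1.74 ± 1.16 for GARIN4 to 17.7 ± 6.45 for FERMT3, where ADM5 at 17.6 ± 0.144 did not differ from FERMT3 beyond the spread. With ASO10 in NGP, PYGM led at 311 ± 25.5, above FERMT3 at 271 ± 19.3 and ECM1 at 268 ± 18.7. The last 2 lay within each other's spread. FERMT3 was first in SK-N-BE(2)c with ASO10 at 202 ± 14.1 per kilobase and PYGM next at 181 ± 21.8, which lay within the spread of both. GARIN4 was the highest of the 9 in IMR32 with ASO2, at 71.5 ± 14.3 (SD, n = 4), and next to last in NGP with the same ASO, at 21.0 ± 2.68.

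The ASOs of a line were then compared with each other, a contrast that is not part of the criterion given above. It is built from the same libraries and changes that did select the genes, so its size is not independent of the selection. In NGP, 8 of the 9 genes were lower with ASO2 than with ASO10, against 28% of all genes tested (58.6% differed in either direction). In SK-N-BE(2)c 7 of 9 were lower, against 30.8% (65.4% in either direction), and 7 of 9 were lower in both lines, against 22.8% of the genes tested in both. No member was called higher with ASO2 than with ASO10. Of all calls in SK-N-BE(2)c, 52.9% were higher with ASO2, and 42.2% after rescaling to the same total. The ASO2 libraries lay entirely below the ASO10 libraries for 8 genes in NGP and 7 in the SK-N-BE(2)c line, against 31% and 32% of all genes.

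The largest of these differences were in MROH6 and PYGM. MROH6 differed by -2.47 ± 0.25 (ASO2 minus ASO10, log2) in NGP and -2.16 ± 0.19 in the SK-N-BE(2)c line (limma, adjusted p = 5.6e-09 and 8.3e-11). PYGM differed by -2.25 ± 0.15 and -2.06 ± 0.17 (adjusted p = 3.7e-12 and 2.0e-11). GARIN4 followed at -1.79 ± 0.20 and -1.64 ± 0.33 (adjusted p = 2.2e-08 and 7.6e-05). FERMT3, RILP and ACTA1 differed by -1.37, -1.14 and -1.08 in NGP and by -0.94, -1.16 and -1.05 in the SK-N-BE(2)c line. ECM1 differed by -0.73 ± 0.091 and -1.26 ± 0.16.

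ZMYND10 was the gene for which no difference between ASO2 and ASO10 was called in either line. The difference was 0.078 ± 0.12 in NGP, with a 95% interval from -0.17 to 0.33, and 0.35 ± 0.26 in SK-N-BE(2)c, with an interval from -0.17 to 0.88 (limma, adjusted p = 0.604 and 0.233). All SK-N-BE(2)c ZMYND10 libraries with ASO2 were above all with ASO10, as were 36.1% of all genes. ADM5 differed in NGP by -0.89 ± 0.18 (adjusted p = 1.7e-04) and in SK-N-BE(2)c by -0.31 ± 0.15, with an interval from -0.62 to 0.0041 (adjusted p = 0.0773). The SK-N-BE(2)c difference of ADM5 was called without ASO2 replicate 1 (-0.45, adjusted p = 0.022), with all libraries rescaled to the same total (adjusted p = 0.0183) and by edgeR on recovered reads (adjusted p = 0.0245).

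In IMR32, 4 of the 9 genes were lower with ASO1 than with ASO2 and none was higher, against 12.8% of all genes lower and 9.17% higher (21.9% in either direction). Of all calls there, 41.8% were higher with ASO1, and 59.8% after rescaling to the same total. RILP differed by -0.95 ± 0.16 (ASO1 minus ASO2, log2; limma, adjusted p = 2.1e-04) and PYGM by -0.87 ± 0.22 (adjusted p = 0.00728). GARIN4 differed by -0.59 ± 0.16 (adjusted p = 0.01) and FERMT3 by -0.52 ± 0.14 (adjusted p = 0.00947). For 3 genes every ASO1 library was below every ASO2 library, as for 11.9% of all genes. The differences of ECM1, ADM5, ACTA1 and MROH6 lay between -0.062 and 0.15, with 95% intervals that all include 0, the widest from -0.39 to 0.53 for ADM5. That of ZMYND10 was -0.28 ± 0.30, with an interval from -0.90 to 0.34.

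**Figure D3:**
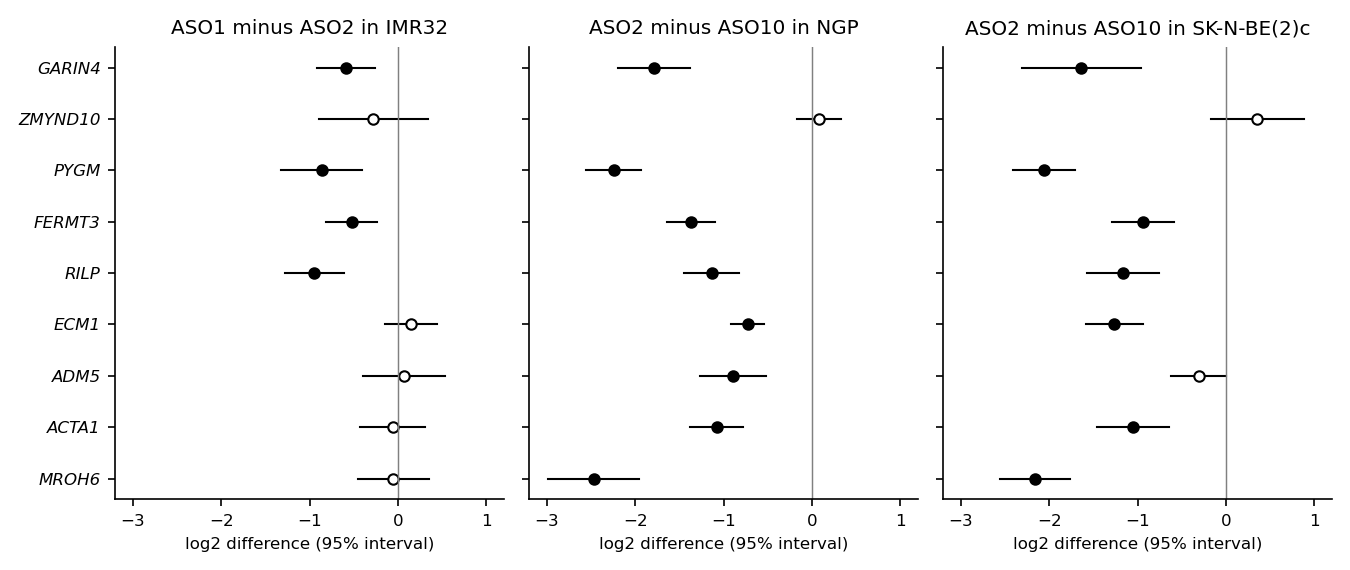
Log2 difference between the NESPR-directed ASOs within each line, with 95% intervals, for ASO1 minus ASO2 in IMR32 and ASO2 minus ASO10 in SK-N-BE(2)c and NGP. Filled points passed an adjusted p under 0.05: 4 genes in IMR32, 8 in NGP and 7 in the SK-N-BE(2)c line, all to the left of 0, and ZMYND10 is open in all 3 panels.

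NGP and SK-N-BE(2)c were scaled together by the authors, so their levels can be compared in 1 fit of 18 libraries. With NCA, 8 of the 9 genes were lower in SK-N-BE(2)c than in NGP and MROH6 was higher. Differences between these lines were common, with 39.8% of all genes lower and 37.3% higher. The NCA libraries are also the baseline of the changes that selected the genes, so these differences are not independent of the selection. ZMYND10 had the largest difference, at 121 ± 20.2 in NGP and 9.49 ± 3.93 in the SK-N-BE(2)c line (SD, n = 3; -3.60 ± 0.20 on the log2 scale; limma, adjusted p = 3.6e-14). GARIN4 followed at -2.40 ± 0.28 and ECM1 at -2.24 ± 0.15. The smallest differences were those of ADM5 (-1.03 ± 0.19) and MROH6, which was higher at 61.8 ± 18.5 against 30.6 ± 12.5 (SD, n = 3; 1.03 ± 0.28; adjusted p = 0.00187). Without NGP NCA replicate 3 the MROH6 difference was 0.65.

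With the NESPR-directed ASOs, the levels of some genes lay closer between the 2 lines. With ASO10, ACTA1 reached 202 ± 13.4 in NGP and 193 ± 24.8 in the SK-N-BE(2)c line (SD, n = 3), which differ by less than the spread, from controls at 56.0 ± 3.55 and 21.5 ± 5.00. RILP reached 283 ± 25.7 and 233 ± 5.24 from 79.7 ± 16.9 and 22.0 ± 7.32. FERMT3 with ASO2 stood at 326 ± 68.8 and 323 ± 41.2, again within the spread, from 129 ± 22.9 and 54.4 ± 19.8. ZMYND10 kept a wide gap, at 310.3 ± 38.8 in NGP and 60.5 ± 6.29 in the SK-N-BE(2)c line with ASO10.

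The difference of the changes against NCA between these lines is built from 2 of the 6 changes that selected and ranked the 9 genes, so it is a description of them and supports nothing. It was called larger in SK-N-BE(2)c for 7 of the 9 genes with each ASO. Over all genes 8.79% (ASO2) and 8.09% (ASO10) were called so, and nothing is read from that comparison. Of all calls with ASO2, 52.5% were larger in SK-N-BE(2)c, and 32.9% after rescaling to the same total. These tests share the NCA libraries whose levels differ between the lines, as given above. With ASO2 the largest difference was 1.68 ± 0.40 for GARIN4 (adjusted p = 0.00519), followed by RILP and ZMYND10. With ASO10 it was 1.58 ± 0.29 for RILP (adjusted p = 6.1e-04). A pseudocount of 5 in place of 1 brought the GARIN4 values to 1.04 with ASO2 and 0.84 with ASO10. The FERMT3 difference with ASO10 was 0.86 ± 0.28 (adjusted p = 0.0345) and missed the threshold with no filter on low values (adjusted p = 0.0817) and without any 1 of 7 libraries. The lowest of these values was 0.52, without SK-N-BE(2)c NCA replicate 3.

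The genes whose change was not called different between the lines were ADM5 and MROH6. ADM5 differed by 0.73 ± 0.27 with ASO2 (95% interval 0.16 to 1.29, adjusted p = 0.0708) and 0.14 ± 0.27 with ASO10 (interval -0.42 to 0.71). Its ASO2 value passed the threshold without NGP NCA replicate 3 (1.01, adjusted p = 0.00343), and by edgeR and DESeq2 on recovered reads (adjusted p = 0.0352 and 0.0212). MROH6 differed by -0.23 ± 0.40 with ASO2 (interval -1.05 to 0.59) and -0.53 ± 0.40 with ASO10 (interval -1.35 to 0.29).

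All 9 genes share a position that is not part of the criterion given above. How the 9 were taken from the genes that met it is not given in the sources used here. Whether position had a part in that choice therefore cannot be told. In GENCODE 29 (build GRCh38), the nearest tested gene on the 5′ side of each lay on the same strand and within 10 kb. The same held for 16.8% of all 11574 tested genes with such a neighbour and for 21.4% of the 345 other genes higher in all 6 comparisons. Of the genes lower in all 6 comparisons, 4.73% had one. Same-strand neighbours at any distance were found for 47.2% of all genes and 47.2% of the 345. The median gap was 1.81 kb for the 9 genes and 16.4 kb for all genes. No test was made of this position.

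The 5′ neighbours were ATF3 (before GARIN4), NPRL2 (ZMYND10), SF1 (PYGM), STIP1 (FERMT3), PRPF8 (RILP), TARS2 (ECM1), PRMT1 (ADM5, overlapping), NUP133 (ACTA1) and NAPRT (MROH6). Of these, ATF3, NPRL2 and TARS2 were called higher in all 6 comparisons, and none of the 9 genes on the 3′ side was. Over all genes tested in all 3 lines, 3.05% were called so. No neighbour was called lower in all 6, as 2.92% of all genes were. ATF3, a stress-induced transcription factor, changed by 0.77 with ASO1 and 0.73 with ASO2 in IMR32, 1.16 with ASO2 and 1.49 with ASO10 in NGP, and 0.63 and 0.71 in SK-N-BE(2)c. TARS2, the mitochondrial threonyl-tRNA synthetase, changed by 0.22 (ASO2 in IMR32) to 1.09 (ASO10 in SK-N-BE(2)c). NPRL2, a subunit of the GATOR1 complex that restrains mTORC1, changed by 0.30 to 0.54.

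The median change of the 5′ neighbours was below that of the 9 genes in all 6 comparisons, at 0.23 and 0.22 in IMR32, 0.15 and 0.13 in NGP and 0.54 and 0.33 in SK-N-BE(2)c. The 9 genes were selected on these changes and their neighbours were not, so a lower median largely follows from the selection. NUP133, a nuclear pore protein, was called lower in 3 comparisons and higher in none, while ACTA1 was higher in all. PRPF8, a core splicing factor, moved by -0.45 with ASO2 in NGP and by 0.33 with ASO10 in the SK-N-BE(2)c line. NAPRT, an enzyme of NAD synthesis, was lower with ASO2 and higher with ASO10 in both lines. It changed by -0.56 with ASO2 and 1.19 with ASO10 in NGP, and by -0.62 and 0.67 in the SK-N-BE(2)c line. MROH6 itself, in the same order, changed by 0.71, 3.18, 0.48 and 2.64.

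Per kilobase of exon, a member's level was a varying share of its 5′ neighbour's. A higher share with an ASO than with NCA largely follows from the selection of the members. PYGM was 4.06% of SF1 with NCA, 5.73% with ASO2 and 30.2% with ASO10 in NGP, and 1.59%, 4.50% and 23.0% in the SK-N-BE(2)c line. FERMT3 was 3.70%, 8.43% and 24.7% of STIP1 in NGP, in the same order. SF1 itself had means of 5605 ± 360.3, 6865 ± 142 and 6142 ± 232 (SD, n = 3) in NGP, a narrower range than that of PYGM. In IMR32 PYGM was 0.496% of SF1 with NCA and 1.94% with ASO2.

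The largest changes among the neighbours were on the 3′ side. SCARF1, a scavenger receptor that lies 0.397 kb after RILP on the same strand, changed by 0.43 with ASO1 and 2.17 with ASO2 in IMR32, 0.27 with ASO2 and 2.29 with ASO10 in NGP, and 1.00 and 4.22 in SK-N-BE(2)c. RASGRP2, a RAP1 activator 0.932 kb after PYGM, changed by -0.34 with ASO1 and -0.49 with ASO2 in IMR32, 0.87 with ASO2 and 3.41 with ASO10 in NGP, and 0.38 and 3.63 in SK-N-BE(2)c, and it was called lower with both ASOs in IMR32 and higher with both in NGP and with ASO10 in the SK-N-BE(2)c line. TRPT1, which overlaps the end of FERMT3 on the opposite strand, was called lower in 5 comparisons and higher in none. It changed by 0.022 with ASO1 and -0.28 with ASO2 in IMR32, -0.34 with ASO2 and -0.70 with ASO10 in NGP, and -0.50 and -0.62 in SK-N-BE(2)c. The other 3′ neighbours were BATF3, RASSF1, MCL1, CPT1C, CCSAP and ZC3H3, of which RASSF1, MCL1, CPT1C, CCSAP and ZC3H3 were called higher in 3, 5, 2, 1 and 4 comparisons and BATF3 in none. Of these, CCSAP was called lower in 3 comparisons, CPT1C in 2 and RASSF1 in 1.

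**Figure D4:**
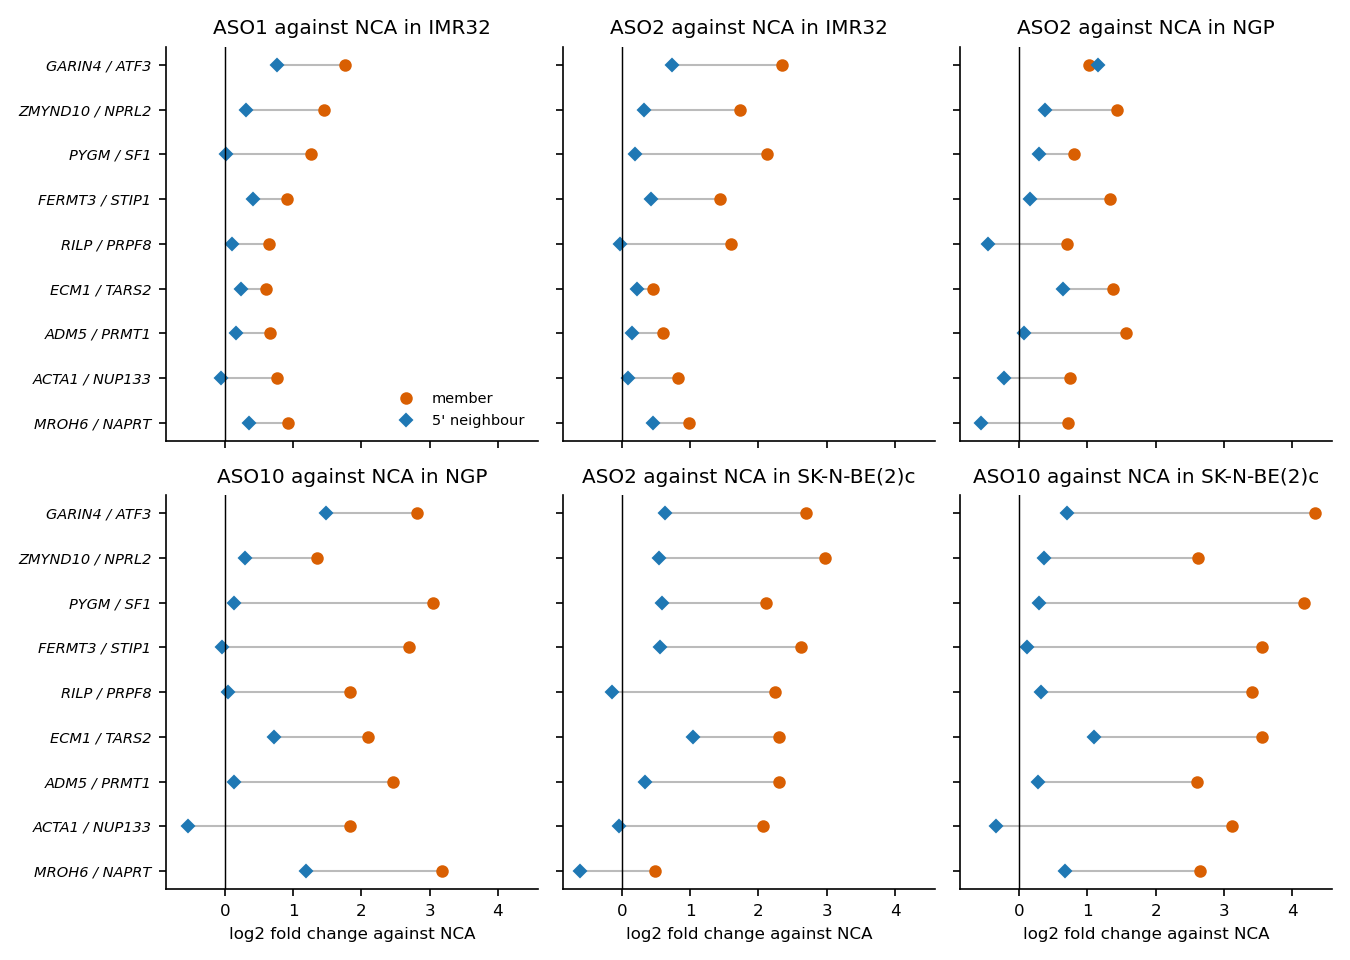
Log2 fold change against NCA of each member (circles) and of the nearest tested gene on its 5′ side (diamonds) in the 6 comparisons. The members lie to the right of their neighbours in all but 1 of the 54 pairs, that of GARIN4 (1.02) and ATF3 (1.16) with ASO2 in NGP. The members were selected and ranked on these changes and the neighbours were not, so this order largely follows from the selection.

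The share of relatives and functional partners of the 9 genes called higher in every comparison was near that of all genes. Of 166 genes listed for the pathways of the members, 85 were tested in all 3 lines. Of the 85, 4 (4.71%) were called higher in all 6 comparisons and 3 were called lower in all 6, against 3.05% and 2.92% of all genes. The 4 were DNAAF5, FERMT2, ACTG1 and SRF. DNAAF5 is a dynein arm assembly factor like ZMYND10, and FERMT2 is a kindlin found outside blood. ACTG1 is a cytoplasmic actin and SRF the factor that binds the CArG box. DNAAF5 changed by 0.36 and 0.33 in IMR32, 0.96 and 0.95 in NGP, and 0.57 and 0.67 in SK-N-BE(2)c. FERMT2 changed by 0.49 and 0.41 in IMR32, 0.95 and 0.30 in NGP, and 0.82 and 0.22 in SK-N-BE(2)c. SRF changed by 0.27 and 0.38 in IMR32, 0.74 and 0.28 in NGP, and 1.02 and 0.30 in SK-N-BE(2)c, and ACTG1 by 0.11 to 0.60. The 3 lower genes were TLN2 (talin 2, a partner of kindlins in integrin activation), VPS41 (late endosome fusion) and PAM (the enzyme that amidates adrenomedullin peptides). TLN2 changed by -0.45 and -0.23 in IMR32, -0.52 and -1.56 in NGP, and -0.90 and -1.40 in SK-N-BE(2)c, VPS41 by -0.53 to -0.24 and PAM by -1.68 to -0.23.

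Of the glycogen genes beside PYGM, 10 of 19 tested were called lower and 2 higher with ASO2 in NGP, against 28.1% and 30.6% of all genes. For SK-N-BE(2)c with ASO2, 12 of 20 were lower and 2 higher, against 33.4% and 33.6%. ASO10 gave 5 lower and 6 higher of 19 in NGP, and 9 lower and 5 higher of 20 in the SK-N-BE(2)c line. With ASO10, 27.6% of all genes were lower and 26.8% higher in NGP, and 31.1% and 27.8% in SK-N-BE(2)c. Of 20 tested in IMR32, 2 were lower and 3 higher with ASO1, and 4 lower and 4 higher with ASO2. Over all genes in IMR32, 14.4% were lower and 13.6% higher with ASO1, and 14.8% and 17.6% with ASO2. EPM2A, the glycogen phosphatase laforin, had the largest mean change of the list, at -0.19 and -0.38 in IMR32, -0.65 and -1.57 in NGP, and -0.74 and -1.82 in SK-N-BE(2)c. The other 2 glycogen phosphorylases were looked at after their values were seen. PYGB, the brain form, changed by -0.16 and 0.12 in IMR32, 1.06 and 0.97 in NGP, and 1.23 and 1.22 in SK-N-BE(2)c, and PYGL, the liver form, by -0.10 and -0.36 in IMR32, -0.65 and 0.76 in NGP, and -0.46 and 0.45 in SK-N-BE(2)c. Neither was called higher in all 6 comparisons.

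In the list of actins, SRF and sarcomere genes, 10 of 16 tested were called higher and 4 lower with ASO10 in NGP, against 26.8% higher over all genes, and 7 higher and 4 lower with ASO2, against 30.6%. Of 14 tested in the SK-N-BE(2)c line, 8 were higher and 2 lower with ASO2 (33.6% of all genes were higher) and 8 higher and 1 lower with ASO10 (27.8%). The 18 tested in IMR32 gave 2 higher and 3 lower with ASO1 and 3 higher and 2 lower with ASO2, against 13.6% and 17.6% higher. Its largest change was that of MYH3, at 0.19 and 0.24 in IMR32, 0.23 and 2.49 in NGP, and 1.62 and 4.79 in SK-N-BE(2)c. For ZMYND10, the list of ciliary genes gave 3 higher and 4 lower of 11 with ASO2 in NGP and 3 and 2 with ASO10. The same counts were 2 higher and 5 lower of 11 with ASO2 and 4 and 3 with ASO10 for SK-N-BE(2)c, and 3 higher and 2 lower of 14 with ASO1 and 1 and 2 with ASO2 for IMR32. The shares over all genes, higher and lower, were 30.6% and 28.1% with ASO2 and 26.8% and 27.6% with ASO10 in NGP. For the same ASOs they were 33.6% and 33.4%, and 27.8% and 31.1%, in SK-N-BE(2)c. In IMR32 they were 13.6% and 14.4% with ASO1 and 17.6% and 14.8% with ASO2. Within the ciliary list ODAD3, an outer dynein arm docking protein, changed most, from -0.65 with ASO2 in SK-N-BE(2)c to 4.01 with ASO10 in NGP. The summed level of 7 markers of multiciliated cells was 36.4 to 43.1 with NCA, 25.6 to 39.0 with ASO2 and 17.3 to 23.7 with ASO10 in NGP, and 118 to 131, 88.8 to 97.2 and 75.7 to 96.2 in the SK-N-BE(2)c line, lower with ASO10 than with NCA in both lines while ZMYND10 was higher. In IMR32 it was 84.6 to 122 with NCA, 90.2 to 123 with ASO1 and 88.6 to 102 with ASO2.

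Among the remaining lists, none had a gene called higher in all 6 comparisons. GARIN1A, a relative of GARIN4, changed by -0.67 and 0.30 in IMR32, -0.11 and 1.11 in NGP, and 0.51 and 2.22 in SK-N-BE(2)c. RAB36, a GTPase bound by RILP, changed by -0.24 and -0.25 in IMR32, -1.87 and -1.23 in NGP, and -1.76 and -0.63 in SK-N-BE(2)c. HSPG2 (perlecan), a partner of ECM1 in the matrix, was lower with ASO2 in NGP (-1.36) and SK-N-BE(2)c (-1.43), and at -0.016 and 0.15 with ASO10. MROH8, the only relative of MROH6 tested in all lines, was at -0.44 and -0.47 in IMR32, -0.54 and 0.44 in NGP, and -1.22 and 0.79 in SK-N-BE(2)c.

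The 10 markers of adrenergic neuroblastoma were tested in all 3 lines, and none was at 3 reads or fewer in any group. Their sum was 54426 to 57154 with NCA, 49624 to 54876 with ASO1 and 50394 to 56226 with ASO2 in IMR32. With NCA, ASO2 and ASO10 it was 92762 to 95169, 83158 to 88056 and 88824 to 91529 in NGP, and 87475 to 97249.7, 77061 to 80773 and 75138 to 78672 in the SK-N-BE(2)c line. The part of these lower sums in the results was not tested. Of the 10, 4 were called lower and 1 higher with ASO1 in IMR32, and 5 and 0 with ASO2. Over all genes there, 14.4% and 14.8% were lower and 13.6% and 17.6% higher. With ASO2, 5 were lower and 2 higher in NGP and 5 and 4 in the SK-N-BE(2)c line. The shares of all genes were 28.1% and 33.4% lower and 30.6% and 33.6% higher. With ASO10, 6 were lower and 1 higher in NGP and 7 and 0 in the SK-N-BE(2)c line, where 27.6% and 31.1% of all genes were lower and 26.8% and 27.8% higher. PHOX2A, a transcription factor of this list, was called lower in all 6 comparisons, by -0.52 to -0.38. Recovered reads numbered 9393587 to 13932379 per library (IMR32), 11591178 to 13795561 (NGP) and 11497829 to 15060356 (SK-N-BE(2)c). For SK-N-BE(2)c and NGP, column names spell the control of replicate 1 (NCA) and of replicates 2 and 3 (NCA2) differently, and whether this marks another oligonucleotide is not given in the sources used here.

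The levels of most pairs of the 9 genes were also positively correlated between libraries of the same group. Over the 30 libraries, with each gene centred in its group, the Pearson correlation of 2 members ran from -0.05 (ZMYND10 and RILP) to 0.76 (PYGM and FERMT3) with a median of 0.43, and 35 of the 36 pairs were above 0. Centred in each line instead, so that the ASO groups also differ, it ran from 0.57 to 0.97 with a median of 0.90. Libraries of a line share its cells and the authors' scaling, and these values are a description. The 36 pairs are drawn from 9 genes and are not independent. No such correlation was computed for pairs of other genes, so whether these values are particular to the 9 cannot be told. Those centred in each line also hold the shifts against NCA that selected the genes.

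NGP NCA replicate 3 was the lowest of its group for all 9 genes, with a mean deviation of -0.38 (log2) from the group means, and NGP ASO10 replicate 3 was also lowest for all 9, at -0.17. In IMR32, replicate 1 was lowest for 7 genes with ASO1 (-0.33) and 7 with ASO2 (-0.33). SK-N-BE(2)c NCA replicate 2 was highest for 6 genes, at 0.34, and NCA replicate 3 lowest for 6, at -0.25. The mean deviation of all genes tested was between -0.012 and 0.017 in every library, which largely follows from the authors' scaling. The share of all genes lowest or highest in a library was not computed. Below their group means were 47.6% of all genes in NGP NCA replicate 3 and 49.7% in NGP ASO10 replicate 3, against all 9 members in each. For IMR32 replicate 1 it was 39.2% with ASO1 and 39.7% with ASO2, against 8 and 9 members. In both lines the lowest and the highest control libraries were those with the second spelling, NCA2. The change of 8 genes with ASO2 in NGP kept meeting the selection without NCA replicate 3, MROH6 being the exception given above.

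**Figure D5:**
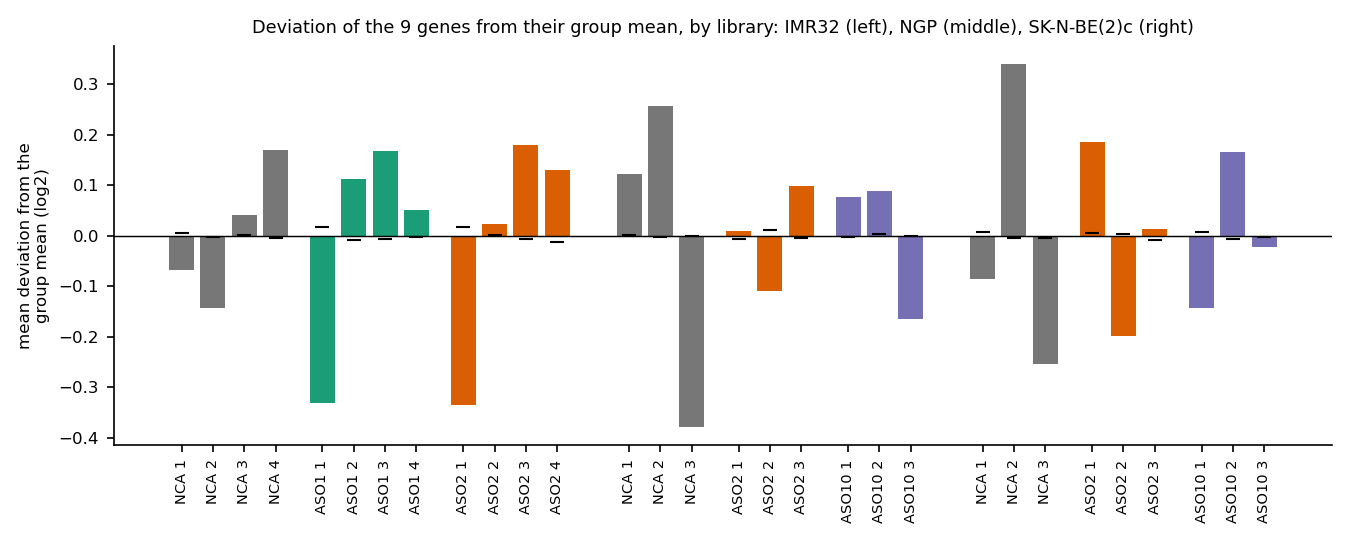
Mean deviation of the 9 genes from their group mean (log2) in each of the 30 libraries, with colour for the ASO and short black bars for the mean over all genes tested. The members depart by up to -0.38 (NGP NCA replicate 3) and 0.34 (SK-N-BE(2)c NCA replicate 2). The mean over all genes stays near 0, which largely follows from the authors' scaling.

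Among the 11585 other genes tested in all 3 lines, the gene most like a member was found by the Pearson correlation over the 30 libraries centred in each line. It was CHD2, a chromatin remodelling helicase, for GARIN4 (0.94), FERMT3 (0.97), RILP (0.96), ECM1 (0.97) and ACTA1 (0.97). CHD2 was called higher in all 6 comparisons, by 0.22 and 0.46 in IMR32, 0.60 and 1.39 in NGP and 1.50 and 2.07 in SK-N-BE(2)c. SNHG32, a host gene of small nucleolar RNAs, was most like PYGM (0.97) and RNF40, a ubiquitin ligase of histone H2B, most like ZMYND10 (0.96). AJM1 was most like ADM5 (0.97) and AURKC, a meiotic kinase, most like MROH6 (0.96), with AJM1 called higher in 5 comparisons and AURKC in 3. The correlation includes the shifts between NCA and ASO libraries that selected the members. A best match that also rose therefore largely follows from the selection.

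Some of the 9 genes overlap other transcripts, and whether counting used strand is not given in the sources used here. The antisense genes at GARIN4 (ENSG00000235862) and ZMYND10 (ZMYND10-AS1) reached at most 2.69 and 1.14 normalized counts in any library, and that at ADM5 (ENSG00000268677) at most 13.3, in IMR32. Of the 50-base stretches of ACTA1 transcripts, 1.81% also occur in POTE genes. For PYGM and ZMYND10 the shares were 0.945% and 0.619%, and for GARIN4, FERMT3, RILP, ECM1 and MROH6 they were 0.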

How the data were processed

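RNA sequencing of transfected cells was used. The values the authors deposited are a signal per gene, namely read counts divided by a size factor per library, and with a tolerance of 0.1 read they gave back whole reads, so reads were recovered for the count tests. The submitters' processing notes name FastQC 0.11.8, cutadapt 1.18, STAR 2.6.0, HTSeq 0.6.1 and DESeq2 1.42.0 with hg19/GRCh37, without roles. Per the labels' protocols, libraries came from a stranded total RNA kit or a stranded mRNA kit, and which library had which is not given in the sources used here. IMR32 was scaled apart from the other lines, and its non-gene entries (0.172% of values) were left out. The number of columns of per-sample values not used was 0.

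Genes with a mean of at least 10 were fitted with limma 3.58.1 in R 4.3.3 on log2(value + 1), with a trend and Benjamini-Hochberg adjustment, per line (17309, 14440 and 13556 genes) and jointly for NGP and SK-N-BE(2)c (14537 genes). Alternatives were pseudocounts of 0.5 and 5, no filter, rescaling to the same total, edgeR 4.0.16, DESeq2 1.42.0, a replicate block, a minimum log2 fold change of 1 and leaving out each library. The fits were tested on simulated data. Named beside the members are the nearest tested gene on each side, list genes called in 1 direction in all 6 comparisons or else the largest change of a list, and the most correlated gene. MYH3, ODAD3 and RAB36 were named outside this rule, as their lists also had a gene called in all 6. PYGB and PYGL were outside it too. The members and lists were chosen with earlier results of these data known. Gene order and length come from GENCODE 29 on another build than the files, so no gene coordinates are given.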

Additional observations from a re-analysis of the deposited data

Results flagged for a closer look

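The change against NCA differed between SK-N-BE(2)c and NGP, by a test of the difference itself (limma, joint fit of 18 libraries), for 7 of the 9 genes with each ASO. All of these differences were larger changes in SK-N-BE(2)c. Each difference is built from 2 of the changes that selected the genes, so these values describe them and support nothing. On the log2 scale they were 1.68 with ASO2 and 1.53 with ASO10 for GARIN4, 1.54 and 1.26 for ZMYND10, and 1.30 and 1.12 for PYGM. For FERMT3 they were 1.29 and 0.86, for RILP 1.55 and 1.58, for ECM1 0.92 and 1.46, and for ACTA1 1.32 and 1.30. Each rests on NCA libraries in which the same 7 genes were lower in SK-N-BE(2)c than in NGP, and the part of that lower control level was not tested. Of 27 sets of 4 libraries examined (9 genes in 3 IMR32 groups), none had a library that stood apart from the other 3 by Dixon's criterion, which chance alone would meet in about 1 of 20 sets.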

How the results depend on the processing

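The count of members higher in all 6 comparisons was 9, and was 9 with pseudocounts of 0.5 and 5, 8 with edgeR, 7 with DESeq2, 7 with no filter and 7 after rescaling. A minimum log2 fold change of 1 left 2, and left 0 of the 4 members that differed between ASO1 and ASO2 in IMR32, 0 of the 3 neighbours and 0 of the 4 partner genes higher in all 6. Leaving out 1 library at a time gave 7 to 9 members higher in all 6, and 4 (IMR32), 8 (NGP) and 7 to 8 (SK-N-BE(2)c) differing between ASOs. It gave 7 to 8 members whose ASO2 change differed between lines and 6 to 7 for ASO10, 9 differing with NCA, 3 neighbours and 3 to 4 partner genes. No called difference changed direction in these alternatives, but 7 that were not called did. Leaving out 1 library, the lowest and highest values between ASO1 and ASO2 in IMR32 were -0.51 and 0.017 for ZMYND10, -0.13 and 0.19 for ADM5, -0.18 and 0.015 for ACTA1 and -0.21 and 0.066 for MROH6 (5.54e-05 after rescaling). For ZMYND10 between ASO2 and ASO10 in NGP they were -0.028 and 0.15, and for the change between lines -0.50 and 0.16 for MROH6 with ASO2 and -0.11 and 0.43 for ADM5 with ASO10. Of 54 calls against NCA, 4 were lost with DESeq2, 1 with edgeR, 3 with no filter and 2 after rescaling. Leaving out 1 library lost 19 of 540. ADM5 and ECM1 in IMR32 and MROH6 with ASO2 were the genes concerned. ECM1 with ASO2 in IMR32 was at 0.40 without ASO2 replicate 3 and 0.35 without NCA replicate 2. With the replicate number as a block, 9 members were again higher in all 6 and 0 member calls changed, while the calls over all genes in IMR32 went from 2354 higher and 2496 lower to 3253 and 3356 with ASO1. Same-numbered libraries correlated from -0.065 to 0.33 in their deviations, and no pair of groups had every correlation above 0.1, so the number was not taken as a pairing. Depth limits the folds of GARIN4 and ZMYND10 most, whose controls hold few reads in SK-N-BE(2)c.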
